A study of Saccharomyces cerevisiae x Saccharomyces kudriavzevii with 6 samples.

Results

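The genes for the protein components of the small subunit of the cytosolic ribosome were followed in a pair of wine yeast hybrids fermenting at 12°C and at 28°C. They were chosen by name and by no measured value, as the RPS genes from RPS0 to RPS31 in both copies together with ASC1, which comes to 57 open reading frames (ORFs). Of these, 53 had a row among the 5616 ORFs of the arrays, and YCR031C, YOL121C, YLR264W and YDL061C were not analysed here. The supplement of the study pairs a gene name with 9 of the 53, and the other 44 are given by their ORF identifier alone, with no role assigned to each.

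The small subunit is the part of the ribosome that binds the messenger RNA, scans it for the start codon and reads the codons. In yeast most of its proteins are encoded by a pair of nearly identical genes, so that the names end in a or b. These genes are among the most strongly transcribed of growing yeast cells. They are known for being switched on and off together, with the genes of the large subunit, as nutrients, growth rate and stress change. ASC1 encodes a propeller-shaped protein bound to the head of the small subunit, the yeast counterpart of RACK1 of animals, which takes part in signalling and in the handling of stalled ribosomes.

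W27 and VIN7 are both hybrids of *Saccharomyces cerevisiae* and *Saccharomyces kudriavzevii* isolated from wine, and both are allotriploid. Each strain fermented Tempranillo grape must at 12°C and at 28°C, and cells were taken early in exponential growth. RNA of both temperatures of 1 strain was hybridised together on each array, with 3 arrays for W27 and 3 for VIN7, named A, B and C, so every value below is a log2 ratio of 12°C over 28°C and a positive value means more signal at 12°C. The RNA of 12°C carried Cy5 on the 3 W27 arrays and on VIN7 A and B, and Cy3 on VIN7 C, so dye and temperature cannot be told apart in W27. The direction of VIN7 C was kept as deposited. The spots were made from ORFs of the *S. cerevisiae* laboratory strain S288c, so the alleles of both parents were read together, and W27 and VIN7 have each lost different parts of the *S. kudriavzevii* genome. Near-identical gene copies can bind the same labelled cDNA, so copies of 1 protein are not independent values. Each array was normalised to itself, so fewer transcripts of these genes per cell and a smaller share of all messenger RNA cannot be told apart. The labels speak of biological replicates while the methods describe 2 independent fermentations of each strain, so the p-values measure the spread between these samples, which may be technical.

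W27 A stood apart from the other 5 arrays. Over all ORFs it correlated negatively with each of them, from -0.273 with VIN7 C to -0.103 with VIN7 B, whereas W27 B and C correlated at 0.795 over 3938 ORFs. The number of ORFs with a value ran from 3800 on VIN7 B to 5565 on VIN7 C, and the standard deviation of the log2 ratio over all ORFs from 0.392 on VIN7 C to 1.71 on VIN7 B, with 1.49 on W27 A. The depth behind a ratio is set by spot brightness, which was not analysed here, and the number of arrays limits the precision. The main counts and medians for W27 are therefore given with and without W27 A.

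Outside W27 A, most small-subunit genes gave less signal at 12°C than at 28°C. In W27, 41 of 53 lay below 0 on array B and 35 of 50 on array C. In VIN7, the number was 41 of 52 on array A, 33 of 43 on B and 45 of 53 on C. Between 46.8% and 52.4% of all ORFs lay below 0 on those arrays, so the small-subunit genes were shifted downwards relative to the other genes of the same array. On W27 A the shift was the opposite, with 50 of 52 above 0, where 47.1% of all ORFs were.

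The median log2 ratio of the small-subunit genes was 2.39 on W27 A, -0.74 on W27 B, -0.40 on W27 C, -0.49 on VIN7 A, -0.87 on VIN7 B and -0.30 on VIN7 C. The all-ORF medians were between -0.11 and 0.083. Ranked among all ORFs of its array, the median small-subunit gene stood at percentile 93.1 on W27 A and between 20.1 (VIN7 C) and 31.1 (W27 C) on the others. VIN7 C, the array with the dyes swapped, thus had the smallest median in size and the lowest rank.

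**Figure D1:**
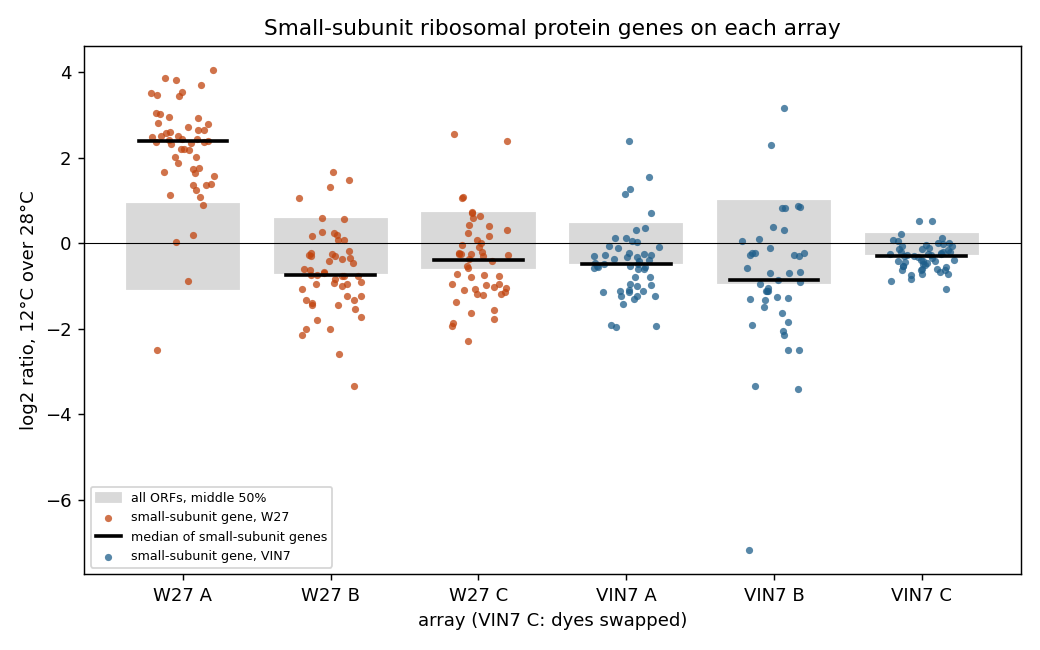
Log2 ratio of 12°C over 28°C (vertical axis) of each small-subunit gene on the 3 W27 arrays (orange) and the 3 VIN7 arrays (blue); the black line is their median and the grey box holds the middle 50% of all ORFs on that array. The W27 A points lie above the others, with a median of 2.39, and the medians of the other 5 arrays lie between -0.87 and -0.30.

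The size of the shift also separated W27 A from the rest. On W27 A, 47 of 52 small-subunit genes (90.4%) had a log2 ratio of at least 1, against 23.3% of all ORFs, and 35 were in the top 10% of that array. On W27 B a log2 ratio of -1 or lower was seen for 16 of 53 (30.2%), against 16.2% of all ORFs. On W27 C it was 15 of 50 (30%, against 13.2%), 19 of 43 on VIN7 B (44.2%, against 24.0%) and 13 of 52 on VIN7 A (25%, against 9.09%). Only RPS10b reached it on VIN7 C, where ratios were small for all ORFs.

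Across the 41 small-subunit genes with a value on every array, the commonest order of signs was below 0 on 5 arrays and above 0 on W27 A, found for 18 (43.9%) where 7.14% of 2674 ORFs had it. W27 A was the highest of the 6 arrays for 39 of the 41, against 28.6% of all ORFs. The other 2 were YOR369C, highest on VIN7 B, and RPS16a, lowest on W27 A. Over the 3 W27 arrays, 10 of 50 were above 0 on each (20%, against 13.0% of all ORFs) and 1 below 0 on each (2%, against 18.8%), whereas on W27 B and C 34 of 50 were below 0 on both (68%, against 39.4%) and 10 above 0 on both (20%, against 39.3%). Leaving W27 A out, 19 of 41 (46.3%, against 10.4% of all ORFs) were below 0 on the remaining 5 arrays and 2 (4.88%, against 14.9%) above 0.

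**Figure D2:**
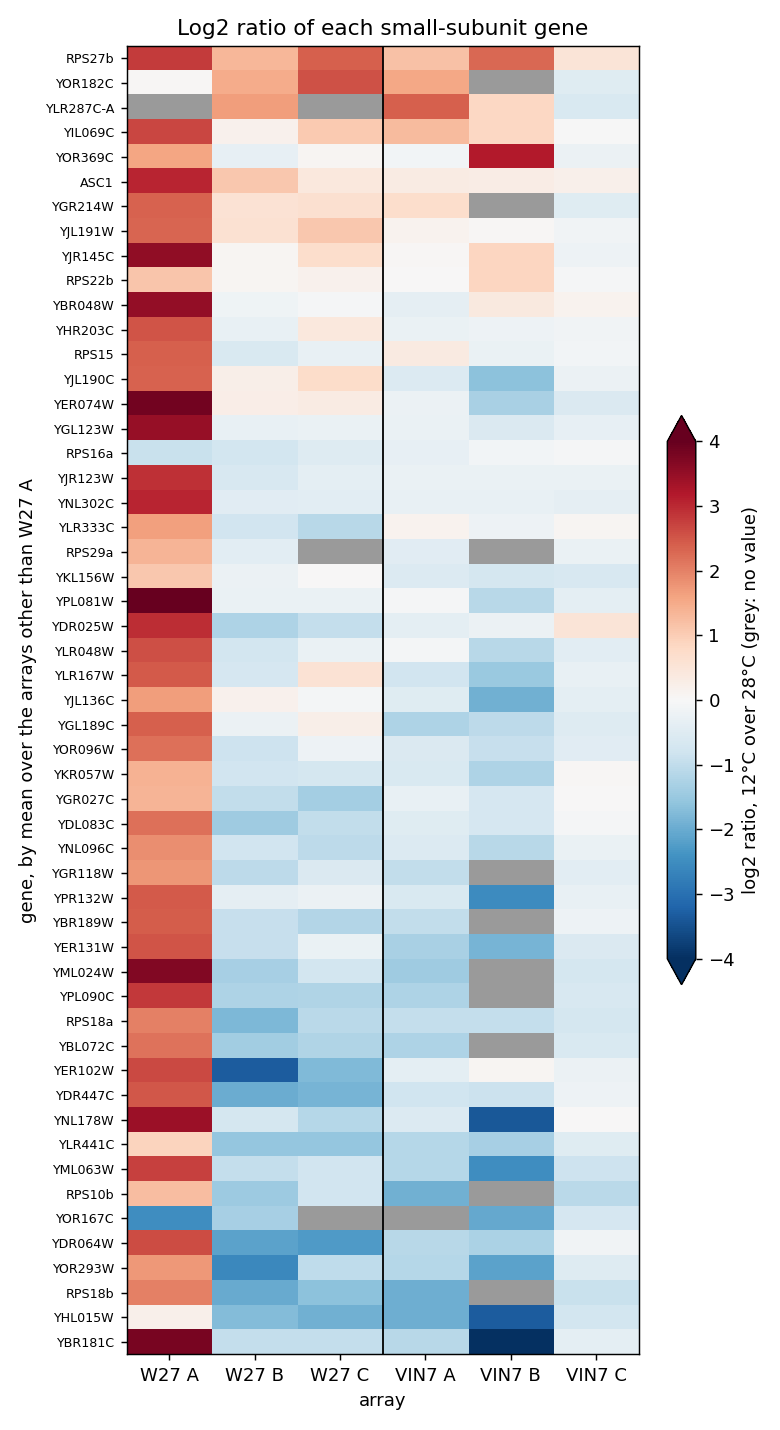
Heat map of the log2 ratio of 12°C over 28°C (red above 0, blue below 0, grey no value) of the 53 small-subunit genes (rows) on the 3 W27 and 3 VIN7 arrays (columns), ordered by the mean over the 5 arrays other than W27 A. The colour scale ends at 4 in each direction, which YBR181C passed on VIN7 B with -7.18 and YPL081W on W27 A with 4.06; RPS27b and ASC1 are red in all 6 columns.

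RPS27b (YHR021C, chromosome VIII), which codes for a copy of a small-subunit protein with a zinc-binding motif, differed in sign from most of its group on every array except W27 A. Its log2 ratio was 2.79, 1.31 and 2.40 on W27 A, B and C, and 1.16, 2.29 and 0.53 on VIN7 A, B and C. All 6 values were above 0, and the strains overlapped. The mean was 2.17 ± 0.77 in W27 and 1.33 ± 0.89 in VIN7 (SD, n = 3 each), the highest of the small-subunit genes with all 3 arrays in each strain. Neither passed the test over all ORFs, with limma adjusted p = 0.661 in W27 and 0.612 in VIN7, although the unadjusted limma p was 0.00502 in W27 and 0.0298 in VIN7. Without W27 A the W27 mean was 1.86, with limma adjusted p = 0.00166 (4.01e-05 to 1 over the alternatives tried).

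ASC1 (YMR116C, chromosome XIII) was the other small-subunit gene above 0 on all 6 arrays (2 of 41, against 3.59% of all ORFs). Its log2 ratio was 3.04, 1.07 and 0.41 on the W27 arrays and 0.32, 0.30 and 0.21 on the VIN7 arrays. Each W27 value was above each VIN7 value, and the VIN7 arrays lay within a narrow range. The mean was 1.503 ± 1.37 in W27 and 0.28 ± 0.057 in VIN7 (SD, n = 3 each), and the difference of 1.23 did not pass the limma test (adjusted p = 0.893). Without W27 A the difference was 0.46 (limma adjusted p = 0.676) and the W27 mean was 0.74, with limma adjusted p = 0.0580 (0.00636 to 1 over the alternatives tried).

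RPS16a (YMR143W, chromosome XIII), a copy of the gene for a protein whose tail reaches towards the decoding centre, was the opposite case. Its log2 ratio was -0.89, -0.74 and -0.52 on the W27 arrays and -0.32, -0.12 and -0.040 on the VIN7 arrays. It was the only 1 of 41 below 0 on all 6 arrays (3.52% of all ORFs were), and every W27 value was below every VIN7 value. It was also, with YOR167C, 1 of only 2 below 0 on W27 A. YOR167C had no value on W27 C and VIN7 A and was below 0 on every array that measured it. It had -2.49 and -1.33 on W27 A and B and -2.05 and -0.66 on VIN7 B and C, further below 0 than RPS16a on each. For RPS16a the limma adjusted p was 0.712 in W27, 0.791 in VIN7 and 0.893 for the difference between the strains. Without W27 A the W27 mean of RPS16a was -0.63 (limma adjusted p = 0.0791, 0.0253 to 1 over the alternatives tried).

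RPS18a (YDR450W, chromosome IV) and RPS18b (YML026C, chromosome XIII) encode the same protein of the head of the small subunit, and are the only pair of copies for which the sources name both. RPS18a gave 2.02, -1.78 and -1.07 on the W27 arrays, and -0.95, -0.95 and -0.72 on the VIN7 arrays. RPS18b gave 2.02, -2.00 and -1.64 on the W27 arrays, and -1.95 and -0.89 on VIN7 A and C, with no value on VIN7 B. Both copies were thus high on W27 A and below 0 on every other array that measured them. RPS18b minus RPS18a was 0.004, -0.22 and -0.57 on the W27 arrays and -0.999 and -0.17 on VIN7 A and C, so the b copy was the lower one on 4 of the 5 arrays. The copies can share cDNA, and the difference was not tested.

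RPS10b (YMR230W, chromosome XIII), for a protein near the entrance of the messenger RNA channel, had the lowest ratio of the group on VIN7 C. Its log2 ratio was 1.25, -1.45 and -0.77 on the W27 arrays, and -1.92 and -1.07 on VIN7 A and C, with no value on VIN7 B. The VIN7 mean was -1.49 ± 0.60 (SD, n = 2). It did not pass the limma test (adjusted p = 0.612), and its unadjusted limma p was 0.0280. The W27 arrays lay on both sides of 0.

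The remaining named genes were RPS15, RPS22b and RPS29a. RPS15 (YOL040C, chromosome XV), whose protein is needed in yeast for the export of the small subunit from the nucleus, had 2.41, -0.60 and -0.31 on the W27 arrays and 0.36, -0.28 and -0.12 on the VIN7 arrays. RPS22b (YLR367W, chromosome XII) had 1.12, 0.068 and 0.16 in W27, against 0.021, 0.85 and -0.054 in VIN7. RPS29a (YLR388W, chromosome XII), which also encodes a zinc-binding protein of the head, had 1.37 and -0.41 on W27 A and B and -0.46 and -0.27 on VIN7 A and C. The strains overlapped for RPS15 and RPS22b, and RPS29a lay below 0 on every array that measured it except W27 A.

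In W27, the question was which small-subunit genes differed between the temperatures. With all 3 arrays, limma called 0 of 52 small-subunit genes and 0 of 4894 ORFs (0.0%) at a false discovery rate of 5%. At an unadjusted p under 0.05, RPS27b and YJL191W were higher at 12°C (2 of 52, against 3.58% of all ORFs) and YOR167C lower (1 of 52, against 3.70%). The significance analysis of microarrays (SAM), run on the 3 arrays only, called 0 of 50. Among all ORFs it tested in W27, SAM called only 5 higher and 0 lower. Its count of 0 therefore does not set the small-subunit genes apart from other ORFs. The median of the W27 means was 0.45 for the small-subunit genes and -0.027 for all ORFs, but 16 of the 52 means were below 0.

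Without W27 A the picture of W27 was reversed. With B and C alone, limma called 23 of 50 small-subunit genes lower at 12°C (46.0%) against 19.6% of 3938 ORFs, and 3 of 50 higher (6%) against 19.5%. The median was -0.55, against 0.003 for all ORFs, and 37 of the 50 means were below 0. In this fit the spread is estimated from 2 arrays of the same dye orientation, and the 3 higher genes were YOR182C, RPS27b and YJL191W. With all arrays kept but weighted by their agreement, limma called 26 of 52 lower (50%, against 25.2% of all ORFs) and 5 higher (9.62%, against 22.2%).

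**Figure D3:**
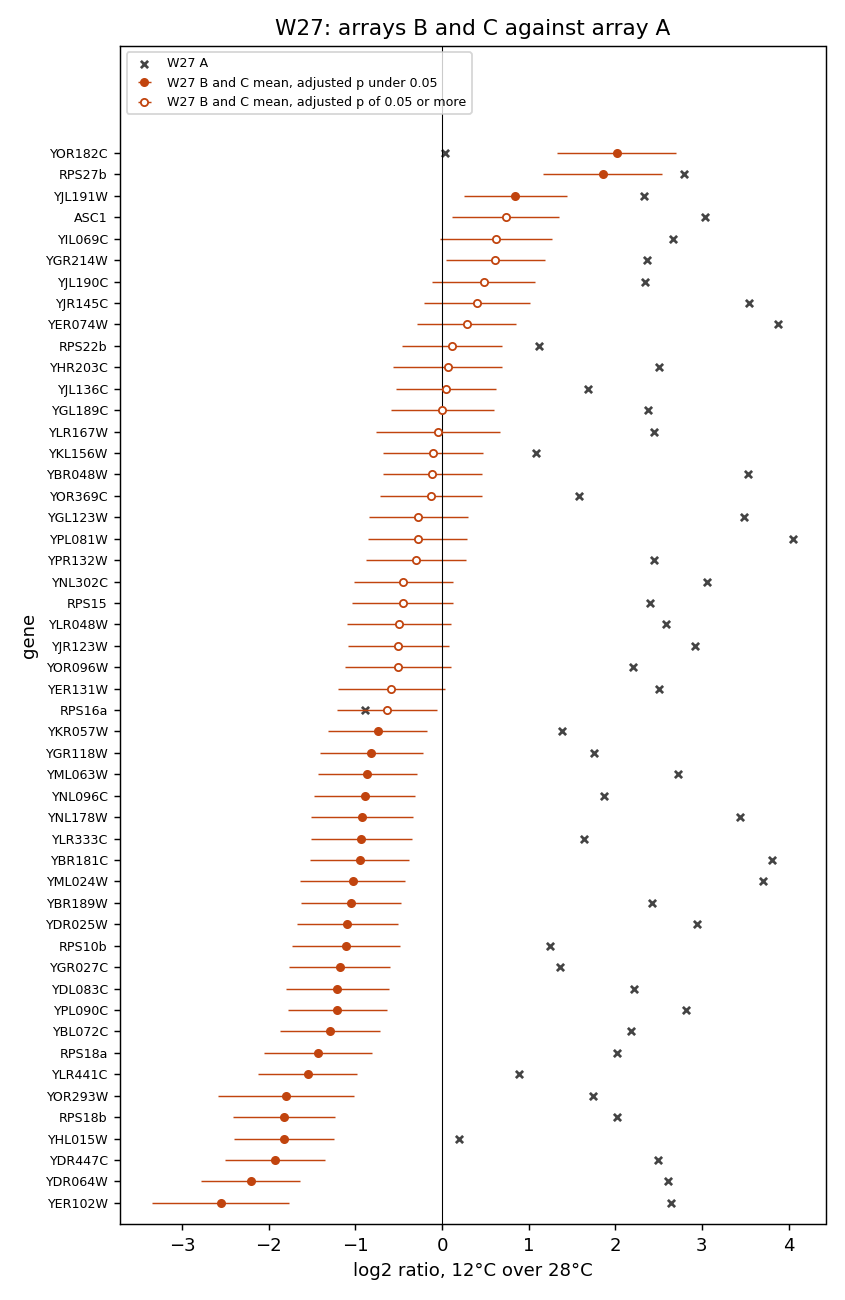
Mean log2 ratio of 12°C over 28°C on W27 B and C for each of 50 small-subunit genes (circles, filled where the limma adjusted p was under 0.05, with 95% confidence intervals from limma) and the value on W27 A (crosses). The 23 filled circles left of 0 have their crosses right of 0, between 0.19 and 3.81.

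The lowest genes on W27 B and C were YER102W and YDR064W. YER102W had 2.64, -3.33 and -1.78 on the W27 arrays, against -0.40, 0.093 and -0.25 on the VIN7 arrays. Its W27 mean without A was -2.56 (limma adjusted p = 0.000743), and its VIN7 values lay around 0. YDR064W had 2.61, -2.14 and -2.28 in W27, against -1.11, -1.28 and -0.16 in VIN7, with a W27 mean without A of -2.21 (limma adjusted p = 0.000445). Over the alternatives tried, the limma adjusted p in W27 ran from 1.24e-06 to 1 for YER102W and from 5.03e-06 to 1 for YDR064W.

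A further group was low on W27 B and C and on all VIN7 arrays alike. YHL015W had 0.19, -1.73 and -1.93 in W27 and -1.95, -3.34 and -0.75 in VIN7, and it was the member least raised on W27 A among those 23 genes. YOR293W had 1.74, -2.58 and -1.02 in W27 and -1.13, -2.14 and -0.53 in VIN7. YLR441C had 0.89, -1.54 and -1.56 in W27 and -1.15, -1.33 and -0.47 in VIN7. For these 3 genes the values of W27 B and C fell within the range of the VIN7 values or below it, and those of W27 A above it.

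YDR447C was also below 0 on W27 B and C and on all VIN7 arrays, with 2.49, -2.00 and -1.86 in W27 and -0.79, -0.87 and -0.19 in VIN7. Its values on W27 B and C lay below all of its VIN7 values. With array A left out, the mean in W27 was -1.93 for YDR447C, -1.83 for YHL015W, -1.82 for RPS18b, -1.80 for YOR293W, -1.55 for YLR441C, -1.43 for RPS18a and -1.11 for RPS10b. Their limma adjusted p-values lay between 0.000625 (YDR447C) and 0.0115 (RPS10b), and each of them reached 1 in another alternative.

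On the higher side, YOR182C was the only small-subunit gene that was high on W27 B and C but not on W27 A. It had 0.040, 1.476 and 2.56 in W27, and 1.56 and -0.50 on VIN7 A and C. Its W27 mean without A was 2.02 (limma adjusted p = 0.00114, 2.26e-05 to 1 over the alternatives). YJL191W had 2.33, 0.60 and 1.09 in W27, against 0.13, 0.059 and -0.13 in VIN7, with a W27 mean without A of 0.85 (limma adjusted p = 0.0304, 0.0141 to 1 over the alternatives). All W27 values of YJL191W were above all of its VIN7 values.

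Among the genes with high ratios on W27 A, 3 are given as examples, chosen after their values were seen. YPL081W had 4.06, -0.28 and -0.28 in W27 and -0.056, -1.11 and -0.39 in VIN7. YER074W had 3.87, 0.26 and 0.32, against -0.23, -1.29 and -0.59 in VIN7. YJR145C had 3.54, 0.085 and 0.72 in W27 and 0.044, 0.87 and -0.19 in VIN7. W27 A exceeded the other W27 arrays by over 2 log2 units for each of these.

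In VIN7 the small-subunit genes were mostly lower at 12°C, but without a call. Limma called 0 of 53 small-subunit genes and 0 of 5100 ORFs (0.0%) at a false discovery rate of 5%, and SAM called 0 of 42 small-subunit genes. Of all 3359 ORFs it tested in VIN7, SAM called 11 higher and 0 lower. At an unadjusted limma p under 0.05, 9 of 53 were lower (17.0%) against 2.24% of all ORFs, and 1 was higher (1.89%) against 3.24%. The 9 were YHL015W, YER131W, YML063W, RPS18a, YGL189C, YLR441C, RPS10b, YOR293W and RPS18b, and the higher one was RPS27b. The median of the VIN7 means was -0.60, against -0.025 for all ORFs, and 42 of the 53 means were below 0. Without VIN7 B the median was -0.35. The number lower at an unadjusted limma p under 0.05 was 0 of 43 without VIN7 A, where 2 of 3783 ORFs were. It was 12 of 52 without VIN7 B, against 290 of 4672 ORFs, and 4 of 42 without VIN7 C, against 65 of 3363 ORFs.

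The VIN7 arrays had a common sign more often for the small-subunit genes than for the ORFs in general. Of the 42 measured on all 3, 26 were below 0 on each (61.9%), against 16.2% of 3359 ORFs, and 2 were above 0 on each (4.76%), against 24.4%. These 2 were RPS27b and ASC1. When VIN7 C was read in the opposite direction, the median became -0.31.

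Some low VIN7 means came with a far lower value on VIN7 B than on A and C. YBR181C had 3.81, -0.95 and -0.95 on the W27 arrays, against -1.10, -7.18 and -0.39 on the VIN7 arrays. YNL178W had 3.44, -0.70 and -1.14 in W27, against -0.53, -3.40 and 0.006 in VIN7. YML063W had 2.72, -0.95 and -0.78 in W27, against -1.13, -2.49 and -0.83 in VIN7. In each case VIN7 B was the lowest of the 6 arrays, and YBR181C and YML063W were below 0 on all 3 VIN7 arrays.

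Some genes were close to their group's edge on the upper side in VIN7. YOR369C had 1.58, -0.34 and 0.083 on the W27 arrays, against -0.11, 3.17 and -0.22 on the VIN7 arrays, so its VIN7 mean of 0.95 came from VIN7 B. YLR287C-A had 1.67 on W27 B, the only W27 array with a value, against 2.39, 0.83 and -0.60 in VIN7. YIL069C had 2.66, 0.19 and 1.06 in W27, against 1.27, 0.82 and -0.026 in VIN7. At the other extreme of spread, YJR123W had -0.25, -0.26 and -0.26 on the 3 VIN7 arrays.

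Counted by the 2-fold limit on the median over arrays, a first cut-off of the study's methods, the counts in W27 depended on the arrays used. In W27 with all 3 arrays, 11 of 52 were lower (21.2%, against 10.8% of all ORFs) and 5 higher (9.62%, against 10.3%). In VIN7, 12 of 53 were lower (22.6%, against 4.10%) and 1, RPS27b, was higher (1.89%, against 5.71%). Without W27 A the count in W27 was 16 of 50 lower (32.0%, against 13.7%) and 2 higher (4.00%, against 12.1%), namely RPS27b and YOR182C. Without W27 B it was 0 lower and 25 higher, without W27 C 1 lower and 19 higher, and by the mean over all 3 arrays 2 lower and 11 higher. Without VIN7 B the number lower in VIN7 was 4, with 0 higher. The share of all ORFs was not computed without W27 B, W27 C or VIN7 B, nor by the mean. Those counts therefore cannot be set against the other ORFs.

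Between the strains, no small-subunit gene differed by the test. Limma on W27 minus VIN7 called 0 of 52 small-subunit genes and 0 of 4670 ORFs (0.0%), with 1 small-subunit gene (1.92%, against 1.31% of all ORFs) higher at an unadjusted p under 0.05, YJL190C, and 0 lower (against 1.84%). The median difference was 0.89 log2 units, against -0.020 for all ORFs. Without W27 A it was -0.017, against 0.046 for all ORFs, and limma again called 0 of 50 small-subunit genes and 0 of 3857 ORFs. At an unadjusted limma p under 0.05, 1 small-subunit gene was then higher and 5 lower (3.01% and 5.83% of all ORFs). With array weights, YER102W was called lower (1 of 52, against 2.29% of all ORFs) and 0 higher (against 0.514%).

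Taken array by array, 7 of 41 small-subunit genes had every W27 value above every VIN7 value (17.1%, against 5.16% of all ORFs), namely YJL191W, YJL136C, YJL190C, YER074W, YGL189C, YKL156W and ASC1. Only RPS16a had every W27 value below every VIN7 value (2.44%, against 9.87%). Without W27 A, both W27 values of the same 7 genes were above every VIN7 value (17.1%, against 15.3% of all ORFs), and both were below every VIN7 value for 13 of 41 (31.7%, against 18.6%). YJL190C had 2.35, 0.24 and 0.72 in W27, against -0.54, -1.64 and -0.25 in VIN7. It and YER074W, given above, were the 2 of 41 with all W27 arrays above 0 and all VIN7 arrays below 0, which 1.20% of all ORFs showed, and 0 of 41 had the reverse, against 3.48%.

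By Pearson's r, the small-subunit genes correlated most strongly among W27 B, W27 C and VIN7 A. By Spearman's rank correlation, W27 B with C was again highest, at 0.894 (n = 50). In rank order VIN7 A with VIN7 B followed at 0.754 (n = 42), then W27 B with VIN7 A at 0.736 (n = 52). W27 C with VIN7 A gave a rank correlation of 0.61 (n = 50). Over the small-subunit genes, Pearson's r was 0.878 between W27 B and C (n = 50), 0.744 between W27 B and VIN7 A (n = 52) and 0.723 between W27 C and VIN7 A (n = 50). Within VIN7 it was 0.615 for A with B (n = 42), 0.452 for A with C (n = 52) and 0.431 for B with C (n = 43). Between the strains it was lower for VIN7 B, at 0.361 with W27 B (n = 43) and 0.438 with W27 C (n = 41), and for VIN7 C, at 0.271 with W27 B (n = 53) and 0.241 with W27 C (n = 50). W27 A gave between -0.013 and 0.193 with the other 5. Over all ORFs the 3 highest pairs gave 0.795 (W27 B with W27 C), 0.657 (W27 B with VIN7 A) and 0.611 (W27 C with VIN7 A), so these values are not particular to the small-subunit genes. These are correlations across genes, which are not independent replicates, and gene copies share cDNA.

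**Figure D4:**
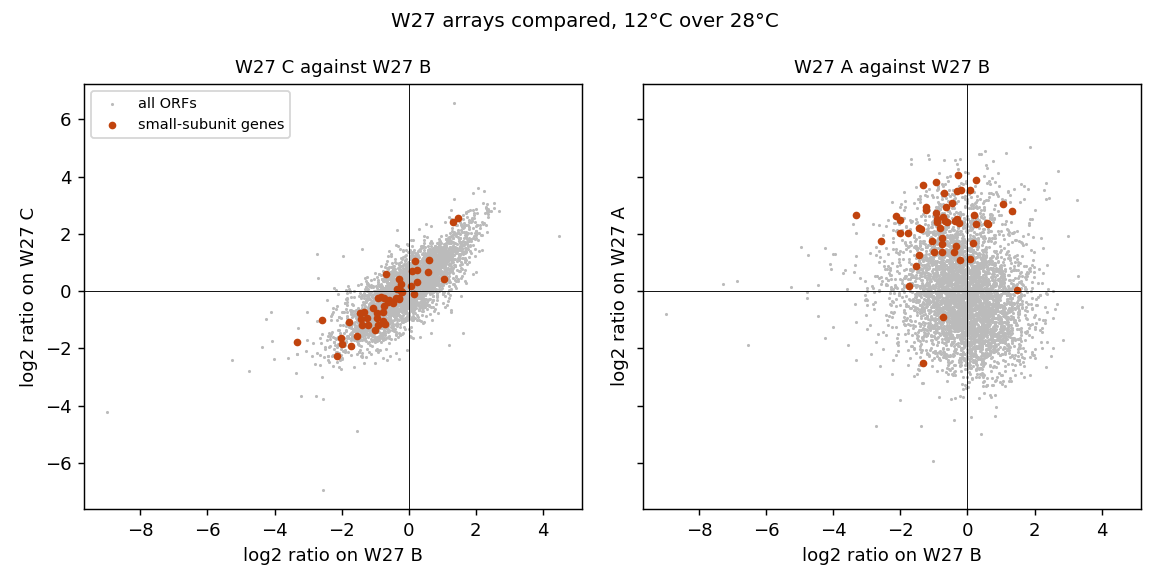
Log2 ratio of 12°C over 28°C on W27 C (left panel) and on W27 A (right panel) against W27 B, for small-subunit genes (orange) and all ORFs (grey). On the left the small-subunit genes follow the diagonal (r = 0.878, n = 50); on the right they form a cloud mostly above 0 on W27 A with r = 0.11 (n = 52).

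The shift was seen on most of the chromosomes that hold small-subunit genes, though some hold few of them, such as chromosome IX with 1. Small-subunit genes with a value lay on 13 chromosomes, and on W27 A their median was above that of all ORFs of the same chromosome on 13 of 13. It was below on 12 of 13 for W27 B, 10 for W27 C, 12 for VIN7 A, 12 for VIN7 B and 13 for VIN7 C. The small-subunit genes were also measured more often than other ORFs, with a value for 94.3% or more on every array but VIN7 B (81.1%), where 67.7% of all ORFs had one.

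Other translation genes named by the study were set beside them, though the study chose those on arrays that include these, so they are not independent. The 6 large-subunit genes (RPL2a, RPL5, RPL20a, RPL20b, RPL24b and RPL32) were all above 0 on W27 A, with a median of 1.96. On the other arrays 4 of 6 (W27 B), 2 of 4 (W27 C), 5 of 5 (VIN7 A), 2 of 4 (VIN7 B) and 3 of 5 (VIN7 C) were above 0. These 6 are only a part of the large-subunit genes. The others were not analysed here, so the 6 do not show how the large subunit behaved as a whole. EFT1, EFT2 and TEF1, which encode elongation factors, had 3.43, 3.51 and 3.66 on W27 A, and all 3 were above 0 on every VIN7 array, while 2 of 3 were on W27 B and 1 of 3 on W27 C. SUI1, for an initiation factor used in start codon choice, had -1.63, -1.50 and -2.12 in W27, and -2.23 and -0.91 on VIN7 A and C, and TIF11, also for an initiation factor, had 0.148, -0.77 and -1.03 in W27, and -1.27 and -0.94 on VIN7 A and C.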

How the data were processed

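The authors' table of log2 ratios of 12°C over 28°C was used as deposited, in the direction deposited. Per the study's methods, the scanner signals had been background corrected in GenePix and normalised in Acuity 4.0, with flagged spots filtered and print-tip correction, and the exact centring is not known. 0 columns were left unused. ORFs with values on at least 2 arrays of a strain were tested with limma 3.58.1 in R 4.3.3 (lmFit, eBayes) against 0, and W27 minus VIN7 over the 6 arrays, with Benjamini-Hochberg adjustment over all ORFs tested and a threshold of 0.05. Small-subunit genes are described by counts and medians beside those of all ORFs.

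The genes and lists, and alternatives such as turning W27 A, were chosen with earlier results of these data known. Genes were named where the study lists them for these strains, where they had the 5 largest or 5 smallest means in a strain, the same sign on all 6 arrays, or the largest changes called in an alternative. Further genes were chosen after their values were seen: YPL081W, YJR123W, YJL190C, RPS15, RPS22b and RPS29a. Names came from the study's supplement, so planned lists by position in the subunit, assembly factors, regulators, other gene copies and promoters were not analysed here, because the sources used here do not pair those names with identifiers. Alternatives covered centring, scaling, filters, a joint model, a dye term, array weights, SAM, turned signs and each array left out.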

Additional observations from a re-analysis of the deposited data

Results flagged for a closer look

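The strains differed in sign for 2 of 41 small-subunit genes (4.88%, against 1.20% of all ORFs), with every W27 array above 0 and every VIN7 array below 0. For YJL190C, W27 minus VIN7 was 1.91 log2 units, and for YER074W it was 2.19. The limma test of the difference gave an adjusted p of 0.893 for each, and the split in signs itself was not tested. Without W27 A the difference was 1.29 for YJL190C and 0.99 for YER074W, with a limma adjusted p of 0.536 for each.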

How the results depend on the processing

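With all arrays 0 small-subunit genes were called in W27, with array weights 5 were called higher and 26 lower, and over the fits that leave out 1 array the counts ran from 0 to 3 higher and from 0 to 23 lower, with the 3 and 23 both without W27 A. The weights were 0.116 for W27 A, 4.47 for B and 1.92 for C. Weighting called 1 gene lower in W27 minus VIN7, YER102W. The W27 median was 0.45, -0.62 with array weights, -1.18 with the sign of W27 A turned and -0.40 as a median over arrays, and from -0.55 to 1.00 with 1 array left out. The median difference between strains was 0.89, -0.036 with weights, -0.57 with W27 A turned, and from -0.017 to 1.49 with 1 array left out. Counts at the 2-fold limit in W27 were 5 higher, or 3 scaled, 11 by the mean, 1 at a log2 ratio of 2, 2 centred by chromosome (chosen after seeing the data), 2 with W27 A turned and 2 (without A) to 25 (without B) with 1 array left out; and 11 lower, or 2 by the mean, 1 at a log2 ratio of 2, 20 with W27 A turned and 0 (without B) to 16 (without A) with 1 left out. In VIN7 they were 1 higher, or 0 at a log2 ratio of 2, 2 with VIN7 C turned and 0 to 4 with 1 left out, and 12 lower, or 0 at a log2 ratio of 2 and 4 to 13 with 1 left out. Without VIN7 B the VIN7 count lower was 4. Beyond the main 2-fold counts and those without W27 A, the share of all ORFs was not computed. Whether the other 2-fold counts moved more than those of all ORFs is therefore not known. Apart from leaving out or turning an array, the cause was not tested.

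Of 242 alternatives for 10 genes, 217 kept direction and side of the threshold, 14 passed the threshold newly and 11 reversed. None of these genes passed in the main fits, so the side of the threshold could change only by a new pass. Every new pass was in W27, either with array weights or without W27 A. The 217 are therefore no measure of how firm these results are. RPS10b in W27 became 0.10 with a dye term and ran from -1.11 to 0.24 with 1 array left out. With 1 array left out, RPS18a in W27 ran from -1.43 to 0.47, RPS18b from -1.82 to 0.19 and YER102W from -2.56 to 0.43. With W27 A turned, ASC1 in W27 was -0.52, YJL190C -0.46, YER074W -1.10, and YER074W between the strains -0.40. The replicate letters share only a letter: same-lettered arrays of the strains correlated at -0.112 (A), 0.108 (B) and -0.259 (C) in their deviations. With the replicate block 0 of 50 small-subunit genes and 0 of 4155 ORFs were called. The median difference was then 1.06, against -0.022 for all ORFs. A single value for each protein was not run, since gene copies could not be paired by name. Spot signal over background was not analysed here.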
